A study of Homo sapiens with 8 samples.

Results

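The glucocorticoid receptor gene NR3C1 and 9 genes that are known to respond to steroid hormones through it (FKBP5, TSC22D3, DUSP1, SGK1, ERRFI1, PER1, KLF9, ZBTB16 and ANGPTL4) were followed in 3 pairs of prostate cancer cell lines, each pair made of a line resistant to the antiandrogen enzalutamide and its sensitive counterpart. The 10 genes were chosen by symbol, out of 16126 genes in any of the 3 tables and 12868 genes in all of them. Of the 10, 9 were followed in the C4-2B table, where NR3C1 is not analysed here, and 10 in each of the CWR-R1 and VCaP tables.

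The glucocorticoid receptor is a transcription factor that waits in the cytoplasm in a complex with heat shock proteins, moves to the nucleus once cortisol or a synthetic steroid binds it, and switches on genes that carry its DNA element. The androgen receptor recognises nearly the same element, so several of the genes followed here, FKBP5 above all, respond to either hormone. In prostate cancer treated with antiandrogens, the glucocorticoid receptor is known for keeping part of the androgen receptor's genes on, and enzalutamide, which blocks the androgen receptor, does not block it.

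Polyadenylated RNA was measured in 8 libraries. C4-2BENZR was compared with C4-2B (2 libraries each, titled as biological replicates), CWR-R1ENZR with CWR-R1 (1 library each) and VCaPENZR with VCaP (1 library each). C4-2B, CWR-R1 and VCaP are established human prostate cancer lines, and the suffix ENZR marks the enzalutamide-resistant line. C4-2BENZR and C4-2B both carry a transgene of luciferase and GFP, which the labels do not list for the other lines. Each state of each lineage is 1 line, and the labels give neither the way resistance was raised nor whether drug or hormone was in the medium at harvest, so a difference between 2 lines cannot be told apart from one between 2 clones or media. Nothing says that the C4-2B libraries came from separate cultures, so their p-values measure the spread between these libraries, which may be technical.

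The libraries held 14503586 to 20248655 reads in the listed genes, and 3 reads corresponded to a level of 0.142 to 0.202. The replicates correlated across genes at 0.995 in C4-2BENZR and at 0.995 in C4-2B. One label stood in doubt. ERG, the oncogene fused to TMPRSS2 in VCaP cells, had a level of 0.179 (3 reads) in the library labelled VCaPENZR, against 428 in VCaP. Its correlation across the 12868 shared genes was 0.940 against CWR-R1ENZR, 0.890 against CWR-R1 and 0.728 against VCaP (Pearson, log2 scale, a description across genes, which are not independent). Every VCaP ratio given here rests on that library. Of 8 prostate epithelial markers, 8 had at least 1 read in 7 libraries and 7 in CWR-R1ENZR, where KLK3 was at 0. Their levels varied. Past 2-fold on the value plus 1, 2 were higher and 5 lower in the library labelled VCaPENZR than in VCaP. Over all genes these shares were 21.1% and 22%. KRT8 was at 3444 in that library, against 446 in VCaP, and FOLH1 at 26.8, against 1184. In CWR-R1ENZR, 2 were higher and 2 lower than in CWR-R1, where 9.79% and 10.3% of all genes were. KRT18 was at 509 there, against 232 in CWR-R1, and EPCAM at 66.8, against 483. Of markers of other cells, 2 or 3 of 6 fibroblast genes, 1 or 2 of 4 endothelial genes and 1 or 2 of 6 blood genes were listed. The summed endothelial level was 3.54 to 3.88 in C4-2BENZR and 7.25 to 7.53 in C4-2B, 27.5 in CWR-R1ENZR and 5.73 in CWR-R1, and 18.6 in the library labelled VCaPENZR and 3.13 in VCaP. This was VWF alone in the C4-2B and VCaP pairs. In the CWR-R1 pair KDR was listed too, at 1.07 (16 reads) in CWR-R1ENZR and 0 in CWR-R1, so nearly all of the sum was VWF. The summed fibroblast level was 66.4 in CWR-R1ENZR and 33.8 in CWR-R1, and 17.3 in the library labelled VCaPENZR and 29.5 in VCaP. Its 2 listed genes went opposite ways in these pairs: COL1A1 was at 63.6 in CWR-R1ENZR and 22.2 in CWR-R1, with LUM at 2.81 in CWR-R1ENZR and 11.6 in CWR-R1. COL1A1 was at 17.0 in the library labelled VCaPENZR and 8.25 in VCaP, with LUM at 0.238 (4 reads) in the library labelled VCaPENZR and 21.2 in VCaP. The blood sum was between 0.135 and 5.29 in every library. The part of these transcripts in the results was not tested.

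Windows of 300 bases around the annotated start sites were available for 9 of the 10 genes (21 windows, RefSeq, GRCh38.p14; the deposited tables were made on hg19, and the windows were matched by symbol). ZBTB16 was not among them. The full palindromic receptor element, with both arms around a 3-base gap, was searched on both strands and matched in 0 of the 21 windows and in 1 of 35116 windows of all genes (0.00285%). Its left arm, AGAACA, matched in 2 of the 21 windows, against 14.8% of all windows. The E-box CACGTG, the letters that clock factors read, matched in 3 of the 21, against 7.26% of all windows, and the cAMP response element TGACGTCA matched in 1, that of DUSP1, against 1.85%. No searched motif overlapped another in these windows. The windows of FKBP5, SGK1 and PER1 that held a match are shown because these genes had the 3 highest C4-2BENZR to C4-2B ratios of the 10. Capitals mark AGAACA (beginning at +1 in the first FKBP5 window and at +6 in that of SGK1) or CACGTG (beginning at -227 in the second FKBP5 window and at -173 in PER1). Position +1 is the start site itself. All 4 windows lie on the minus strand and are written 5′ to 3′ along the gene: chr6:35728534-35728833 and chr6:35688866-35689165 for FKBP5, chr6:134177812-134178111 for SGK1 and chr17:8152355-8152654 for PER1. A match is a description of letters, not evidence of binding.
FKBP5 upstream start: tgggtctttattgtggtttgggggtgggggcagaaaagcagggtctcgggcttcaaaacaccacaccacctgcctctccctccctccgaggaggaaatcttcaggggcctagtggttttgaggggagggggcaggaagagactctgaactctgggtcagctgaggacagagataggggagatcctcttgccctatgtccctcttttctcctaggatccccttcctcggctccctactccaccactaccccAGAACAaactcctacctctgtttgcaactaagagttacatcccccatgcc
FKBP5 downstream start: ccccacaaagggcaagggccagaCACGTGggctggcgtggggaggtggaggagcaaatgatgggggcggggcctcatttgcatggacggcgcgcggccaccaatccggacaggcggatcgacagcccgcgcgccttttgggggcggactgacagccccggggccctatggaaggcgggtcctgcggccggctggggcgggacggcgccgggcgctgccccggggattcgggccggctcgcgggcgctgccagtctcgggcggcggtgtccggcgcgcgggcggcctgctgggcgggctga
SGK1: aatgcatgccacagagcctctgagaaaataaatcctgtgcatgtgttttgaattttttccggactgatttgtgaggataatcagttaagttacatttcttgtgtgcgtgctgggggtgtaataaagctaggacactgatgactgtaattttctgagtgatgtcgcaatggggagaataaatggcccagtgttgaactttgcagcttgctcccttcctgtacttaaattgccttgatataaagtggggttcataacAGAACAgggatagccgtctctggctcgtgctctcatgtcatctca
PER1: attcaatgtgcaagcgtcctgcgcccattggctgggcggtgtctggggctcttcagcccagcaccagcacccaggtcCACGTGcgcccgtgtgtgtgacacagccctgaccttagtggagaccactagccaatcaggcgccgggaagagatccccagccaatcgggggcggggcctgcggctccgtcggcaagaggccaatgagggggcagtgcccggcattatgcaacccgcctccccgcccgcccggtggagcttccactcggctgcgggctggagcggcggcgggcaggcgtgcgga

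NR3C1 itself did not separate CWR-R1ENZR from CWR-R1. Its level, in the deposited scaled counts, which are roughly reads scaled to a common library size, was 42.2 in CWR-R1ENZR and 43.4 in CWR-R1, a ratio of 0.972 whose 95% counting interval (exact binomial on the reads, counting error only) ran from 0.869 to 1.09. The library labelled VCaPENZR stood at 44.4, against 14.1 in VCaP, a 3.16-fold difference (2.73 to 3.66). Set across tables that were normalized separately, the library labelled VCaPENZR and CWR-R1ENZR differed in NR3C1 by a ratio of 1.05 (0.945 to 1.17), so 3 of the 4 libraries lay within counting error of each other and VCaP lay below them. In bulk RNA, fewer cells with a transcript and less of it per cell cannot be told apart.

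**Figure D1:**
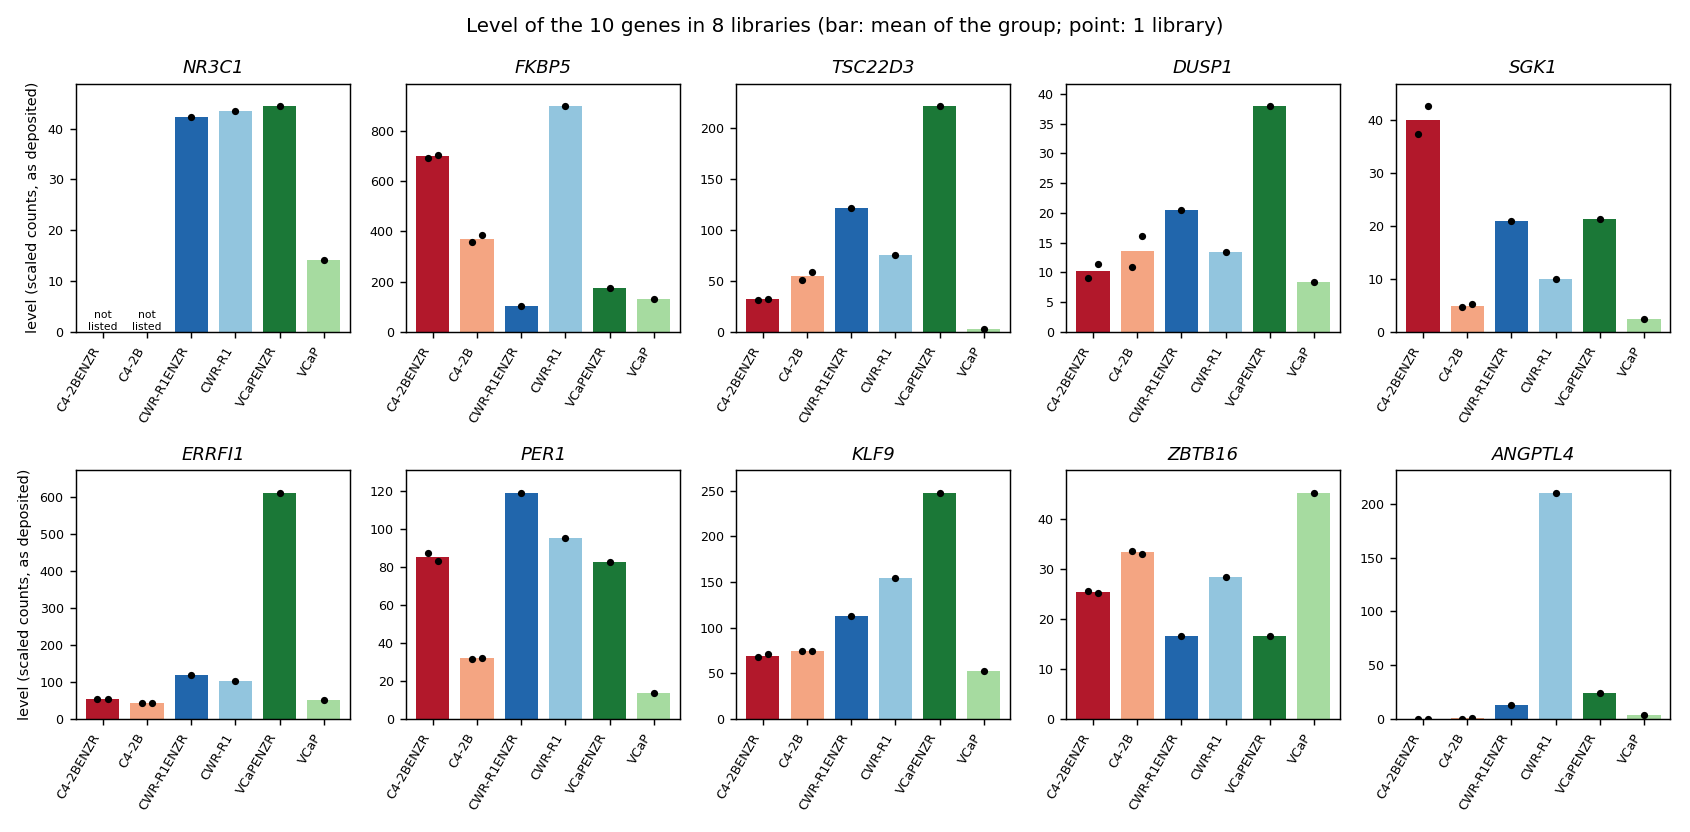
Level of each of the 10 genes (y axes, deposited scaled counts, each panel on its own scale from 0) in 8 libraries, with bars for group means and points for libraries. SGK1 reached 37.2 and 42.6 in C4-2BENZR, against 4.64 and 5.18 in C4-2B, and FKBP5 stood at 103 in CWR-R1ENZR, against 897 in CWR-R1; the VCaPENZR bars come from the library whose label is in doubt.

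In C4-2BENZR the steroid-responsive genes moved in both directions. SGK1, PER1, FKBP5 and ERRFI1 rose, TSC22D3 and ZBTB16 fell, and DUSP1 and KLF9 did not pass the test (limma on log2 of value plus 1, fitted over 13280 genes, Benjamini-Hochberg adjusted p below 0.05). That is 6 of 8 genes tested, 4 higher and 2 lower, where 56.8% of all genes tested passed (27.8% higher and 29% lower). Of the genes tested, 9.92% both passed and differed by at least 2-fold, as SGK1 and PER1 did. The split over all genes was 3691 higher and 3856 lower, and with total counts as the only scaling it was 4757 higher and 2923 lower, the median of all genes then lying at 0.10 on the log2 scale.

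FKBP5 encodes a co-chaperone that lowers the hormone affinity of the glucocorticoid receptor and is itself induced by it, which closes a feedback loop. Its level was 692 and 704 in the C4-2BENZR libraries, against 357 and 383 in the C4-2B libraries. The groups did not overlap, which held for 77.4% of all genes tested. The change was 0.91 ± 0.05 on the log2 scale (SE, 2 libraries a group, limma adjusted p = 2.22e-10), or 1.89-fold in the means.

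TSC22D3, whose leucine zipper protein mediates part of the anti-inflammatory action of glucocorticoids, fell. It stood at 31.7 and 32.5 in C4-2BENZR, against 50.7 and 59.0 in C4-2B. The groups lay apart, and the log2 change was -0.75 ± 0.09 (limma adjusted p = 2.82e-06). DUSP1, a phosphatase that turns off MAP kinases, stood at 9.12 and 11.5 in C4-2BENZR, against 10.99 and 16.15 in C4-2B. These groups overlapped, and the log2 change of -0.35 ± 0.17 missed the threshold (limma adjusted p = 0.0965). Without the second C4-2BENZR library it passed, at -0.50 (adjusted p = 0.026), and without the first C4-2B library too, at -0.61 (adjusted p = 0.00405), while over the other alternatives without a replicate block its adjusted p ran between 0.0738 and 0.696.

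SGK1 encodes a kinase that raises sodium transport and survival signalling and is among the quickest glucocorticoid targets. It had the highest C4-2BENZR to C4-2B ratio of the 8 genes tested. Its level was 37.2 and 42.6 in C4-2BENZR, against 4.64 and 5.18 in C4-2B, with no overlap. The log2 change was 2.79 ± 0.14 (limma adjusted p = 4.84e-11), or 8.13-fold in the means. ERRFI1, which encodes a feedback inhibitor of the EGF receptor family, stood at 51.9 and 51.8 in C4-2BENZR, against 41.98 and 43.3 in C4-2B. The replicates differed little, and the log2 change of 0.28 ± 0.08 passed (limma adjusted p = 0.00664).

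Among the transcription factors, PER1, a repressor in the circadian clock with a known glucocorticoid response, rose. Its level was 87.2 and 83.2 in C4-2BENZR, against 31.6 and 31.9 in C4-2B. The log2 change was 1.40 ± 0.08 (limma adjusted p = 2.04e-10), or 2.69-fold in the means, with no overlap. ZBTB16, a zinc finger repressor that androgens and glucocorticoids both induce, fell: 25.5 and 25.1 in C4-2BENZR, against 33.6 and 32.9 in C4-2B, a log2 change of -0.38 ± 0.10 (limma adjusted p = 0.00294). KLF9, a zinc finger factor induced within hours by glucocorticoids, had levels of 67.4 and 70.5 in C4-2BENZR, against 74.4 and 73.8 in C4-2B. The KLF9 groups did not overlap, yet the log2 change of -0.10 ± 0.07 missed the threshold (limma adjusted p = 0.211). ANGPTL4, a secreted inhibitor of lipoprotein lipase, was close to absent from the C4-2B lineage: 0 and 0.0579 (1 read) in C4-2BENZR, against 0.103 (2 reads) and 0.259 (5 reads) in C4-2B. It was below the filter and was not tested.

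**Figure D2:**
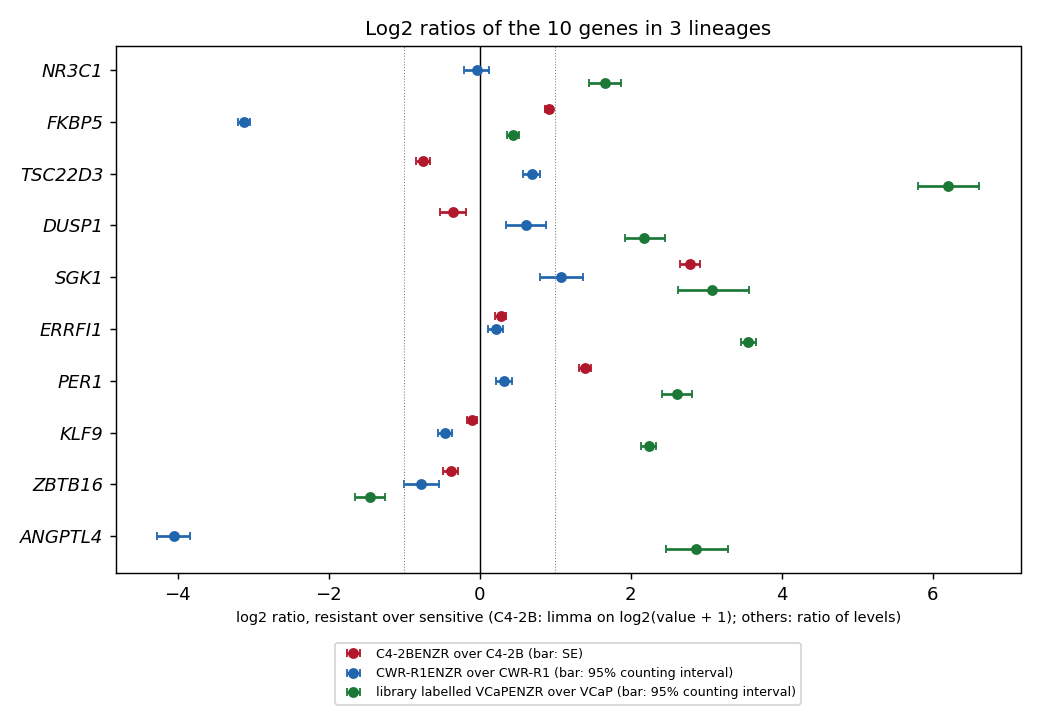
Log2 ratio of resistant over sensitive (x axis) for each gene (y axis) in the 3 lineages; bars are SE for C4-2B and 95% counting intervals for the single-library pairs, and dotted lines mark 2-fold. SGK1, PER1 and ERRFI1 lay right of 0 in all 3 pairs and ZBTB16 left of 0 in all 3. The share of all genes on the same side in all 3 was not counted. FKBP5, TSC22D3, DUSP1, KLF9 and ANGPTL4 changed side between pairs, DUSP1 and KLF9 with C4-2B changes that missed the threshold. NR3C1 and ANGPTL4 have no C4-2B point, and the VCaP points rest on the library of doubtful label.

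In CWR-R1ENZR, FKBP5 and ANGPTL4 were far below CWR-R1 and SGK1 was above it, while the other 7 genes differed by less than 2-fold. With 1 library a line there is no replicate check and no p-value. A gene counted as past 2-fold on the value plus 1, and 3 of 10 genes did (1 higher and 2 lower), where 20.1% of 12462 genes did (9.79% higher and 10.3% lower).

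FKBP5 was at 103 in CWR-R1ENZR, against 897 in CWR-R1, which made it 8.68-fold lower (8.24 to 9.16). ANGPTL4 was at 12.7 in CWR-R1ENZR, against 210.1 in CWR-R1, or 16.6-fold lower (14.3 to 19.3). SGK1 was at 21.0 in CWR-R1ENZR and 9.92 in CWR-R1, a ratio of 2.12 (1.73 to 2.59). On the value plus 1, the SGK1 log2 ratio of 1.01 only just passed 2-fold, and its counting interval reached below it.

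TSC22D3 and DUSP1 were higher in CWR-R1ENZR by less than 2-fold. TSC22D3 stood at 122 in CWR-R1ENZR, against 75.6 in CWR-R1, a ratio of 1.61 (1.49 to 1.74). DUSP1 stood at 20.4 in CWR-R1ENZR, against 13.4 in CWR-R1, a ratio of 1.53 (1.28 to 1.84). PER1 was at 119 in CWR-R1ENZR, against 95.1 in CWR-R1, a ratio of 1.25 (1.17 to 1.34). ERRFI1 was at 119 in CWR-R1ENZR, against 103 in CWR-R1, a ratio of 1.16 (1.08 to 1.24). KLF9 was 1.37-fold lower (1.29 to 1.46), at 113 in CWR-R1ENZR, against 155 in CWR-R1. ZBTB16 was 1.71-fold lower (1.46 to 2.01), at 16.6 in CWR-R1ENZR, against 28.4 in CWR-R1. These intervals cover counting error only, so an interval that leaves out a ratio of 1 does not set the gene apart from the spread between cultures.

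The library labelled VCaPENZR had more of 8 of the 10 genes than VCaP, by at least 2-fold on the value plus 1, and less of ZBTB16. FKBP5 stayed within 2-fold. These are 9 of 10 genes past 2-fold, where 43.1% of 12502 genes were (21.1% higher and 22% lower). The median log2 ratio of the 10 was 2.37, against 0.00 over all genes. TSC22D3, SGK1 and ANGPTL4 reached a level of 5, the filter for these pairs, only in the library labelled VCaPENZR. Their direction is thus partly set by the filter. Without the filter, 9 of 10 genes and 6603 of 14800 genes passed 2-fold. The pair differed widely across the whole transcriptome, and the label of the resistant library is in doubt, so line identity and resistance cannot be told apart in these ratios.

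TSC22D3 showed the highest ratio of the 10 in that pair. It was at 222 in the library labelled VCaPENZR, against 3.02 (53 reads) in VCaP, or 73.5-fold (56.0 to 98.3). ERRFI1 was at 611 in the library labelled VCaPENZR, against 51.8 in VCaP, or 11.8-fold (11.03 to 12.64). SGK1 was at 21.2 in the library labelled VCaPENZR, against 2.50 (44 reads) in VCaP, or 8.46-fold (6.17 to 11.9). VCaP held the lowest SGK1 and TSC22D3 levels of the 8 libraries.

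ANGPTL4 reached 24.1 in the library labelled VCaPENZR, against 3.30 (58 reads) in VCaP, a ratio of 7.29 (5.52 to 9.77). PER1 reached 82.6 in the library labelled VCaPENZR, against 13.5 in VCaP, a ratio of 6.12 (5.33 to 7.05). KLF9, at 248 in the library labelled VCaPENZR and 52.5 in VCaP, had a ratio of 4.72 (4.39 to 5.07). DUSP1 was higher as well, at 37.9 in the library labelled VCaPENZR against 8.37 in VCaP, a ratio of 4.53 (3.78 to 5.46). FKBP5, at 176 in the library labelled VCaPENZR and 129 in VCaP, had a ratio of 1.36 (1.29 to 1.44). ZBTB16 alone ran the other way past 2-fold, at 16.6 in the library labelled VCaPENZR against 45.1 in VCaP, or 2.73-fold lower (2.38 to 3.14).

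The same genes were then set against the CWR-R1 lines, which the library labelled VCaPENZR resembled more than VCaP over all genes. Levels from separately normalized tables were compared, so the ratios are descriptions. NR3C1, SGK1 and ZBTB16 were close to equal in the library labelled VCaPENZR and CWR-R1ENZR: the ratios were 1.05 (0.945 to 1.17) for NR3C1, 1.01 (0.866 to 1.18) for SGK1 and 0.996 (0.836 to 1.19) for ZBTB16. ERRFI1 was 5.12-fold higher (4.87 to 5.39) in the library labelled VCaPENZR and KLF9 was 2.20-fold higher (2.08 to 2.33). Those 2 of 10 genes passed 2-fold on the value plus 1, where 12.9% of 11560 genes did (3.5% higher and 9.44% lower). FKBP5, TSC22D3, DUSP1 and ANGPTL4 were 1.70-fold, 1.82-fold, 1.86-fold and 1.90-fold higher, and PER1 had a ratio of 0.694. Of the 9 genes present in every table, 6 had their nearest level to the library labelled VCaPENZR in CWR-R1ENZR, and 1 each in C4-2BENZR, CWR-R1 and VCaP (FKBP5). ERRFI1 was among the 6, although 5.12-fold apart. The same count was not made over all genes, so it shows nothing particular to these genes.

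**Figure D3:**
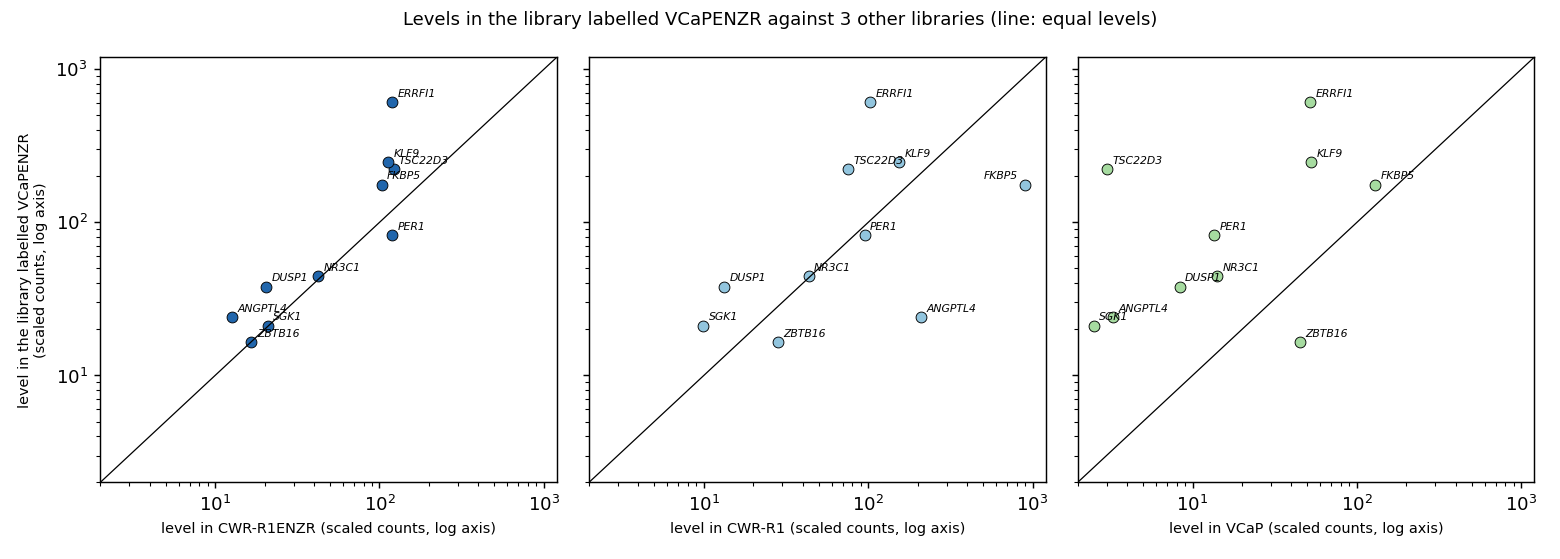
Level of each gene in the library labelled VCaPENZR (y axes, scaled counts, log axis) against CWR-R1ENZR, CWR-R1 and VCaP (x axes, same scale), with a line of equal levels. NR3C1, SGK1 and ZBTB16 lie on the line against CWR-R1ENZR, while against VCaP TSC22D3 lies at 222 and 3.02.

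Across the 6 groups the order of levels differed from gene to gene. SGK1 was highest in C4-2BENZR, followed by the library labelled VCaPENZR and CWR-R1ENZR, which lay within counting error of each other, then CWR-R1, C4-2B and VCaP. ZBTB16 ran the other way, with VCaP, C4-2B and CWR-R1 above C4-2BENZR, and below it CWR-R1ENZR and the library labelled VCaPENZR, which were within counting error of each other. These equal levels in SGK1 and ZBTB16 involve the library whose label is in doubt, so it cannot be counted as a separate resistant line. FKBP5 was highest in CWR-R1, then C4-2BENZR, C4-2B, the library labelled VCaPENZR, VCaP and CWR-R1ENZR. In the deposited order, DUSP1 in CWR-R1, at 13.4, fell inside the range of the C4-2B libraries, 10.99 to 16.15, and the C4-2BENZR and C4-2B ranges overlapped. PER1 in the library labelled VCaPENZR, at 82.6, lay just below the C4-2BENZR libraries, at 83.2 and 87.2. ERRFI1 in VCaP, at 51.8, did not stand apart from C4-2BENZR, at 51.8 and 51.9. The tables were scaled separately, so small gaps between lineages carry no weight.

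The authors' deposited table for C4-2B listed 4 of the 9 genes as higher and 2 as lower at a false discovery rate below 0.05, with DUSP1 at 0.0792, where 27.3% of all its genes were higher and 28.3% lower. For CWR-R1 the authors' deposited table listed 0 higher and 2 lower, FKBP5 and ANGPTL4, where 5.43% of all its genes were higher and 4.46% lower. For VCaP the authors' deposited table listed 8 higher and 0 lower, with ZBTB16 at 0.0846, where 15.2% of all its genes were higher and 15.9% lower. The labels do not say how a test was made from 1 library a line.

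The machinery that holds and reads the receptor moved in both directions in C4-2BENZR. The counts of this and the following lists are to be read against the shares over all genes past the filter. By the test these were 27.8% higher and 29% lower in C4-2B. Past 2-fold they were 9.79% higher and 10.3% lower in CWR-R1, and 21.1% higher and 22% lower in VCaP. In the single-library pairs, the direction of a gene that reached 5 in 1 library only is partly set by the filter. Among those named below are PPARGC1A, PGR, S100P, MAOA, SCNN1A, HLF, DUSP5 and PDK4, in 1 or both pairs. Of 13 chaperones of the receptor complex, 5 rose and 4 fell, with a median log2 change of -0.01, against -0.00 over all genes, and the sign of that median turned under total counts (0.09). DNAJA1, a co-chaperone of HSP70, was at 353 ± 9.32 in C4-2BENZR and 261 ± 14.9 in C4-2B (SD, 2 libraries a group, limma adjusted p = 3.2e-06). HSP90AA1, the chaperone that keeps the receptor ready for hormone, stood at 3215 in C4-2BENZR, against 2389 in C4-2B (limma adjusted p = 1.02e-05), and BAG1, which hands clients over to degradation, fell to 74.9 in C4-2BENZR, against 95.8 in C4-2B (limma adjusted p = 0.000209). Of 14 coregulators, 6 rose and 3 fell (median -0.06, 0.04 under total counts). NRIP1, a corepressor of nuclear receptors, rose to 60.2 ± 0.604 in C4-2BENZR, against 24.9 ± 0.339 in C4-2B (limma adjusted p = 3.51e-09). NCOA1, the first steroid receptor coactivator described, fell to 56.3 in C4-2BENZR, against 92.04 in C4-2B (limma adjusted p = 1.34e-06).

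In CWR-R1ENZR, 1 of the 13 chaperones passed 2-fold: FKBP4, which competes with FKBP5 for the receptor complex and favours nuclear entry, was at 172 in CWR-R1ENZR and 397 in CWR-R1. It lay on the same side as FKBP5 there. Of the 14 coregulators, 0 passed 2-fold. In the library labelled VCaPENZR, 1 chaperone was higher and 3 were lower. HSPA8, the constitutive HSP70 of the cytosol, was at 343 in the library labelled VCaPENZR, against 2104 in VCaP, and STIP1, which bridges HSP70 and HSP90, at 288 against 991 in VCaP. Of the coregulators there, 2 were higher and 2 were lower. PPARGC1A, a coactivator of oxidative metabolism, was at 12.4 in the library labelled VCaPENZR, against 0.285 (5 reads) in VCaP.

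Of 10 genes that handle steroid ligands or bind the same hormones, 3 were tested in C4-2B, and 0 rose and 2 fell. HSD11B2, the enzyme that inactivates cortisol, fell to 33.4 ± 0.847 in C4-2BENZR, against 55.1 ± 0.869 in C4-2B (limma adjusted p = 1.82e-06). It was also lower in CWR-R1ENZR, at 32.8, against 104 in CWR-R1. In the library labelled VCaPENZR it was higher, at 50.1, against 11.95 in VCaP. H6PD, which feeds the enzyme that regenerates cortisol, fell to 68.3 in C4-2BENZR, against 84.3 in C4-2B (limma adjusted p = 0.00246). Of the 4 genes past the filter in the VCaP pair, 2 were higher and 2 were lower in the library labelled VCaPENZR. NR3C2, the mineralocorticoid receptor, which also binds cortisol, was at 31.1 in the library labelled VCaPENZR and 6.26 in VCaP. PGR, the progesterone receptor, was at 0.119 (2 reads) in the library labelled VCaPENZR, against 5.01 in VCaP, and H6PD was at 29.5, against 84.8 in VCaP.

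Beyond the 9 target genes, 40 other genes known to be induced by glucocorticoids did not run one way in C4-2BENZR: of 33 tested, 11 rose and 15 fell, with a median log2 change of -0.15. TIPARP, a mono-ADP-ribosyltransferase, rose to 27.1 in C4-2BENZR, against 11.2 in C4-2B (limma adjusted p = 1.21e-06). ACSL1, which activates long-chain fatty acids, fell to 131 in C4-2BENZR, against 451 in C4-2B (limma adjusted p = 7.29e-14). S100P, a calcium-binding protein, fell to 0.883 in C4-2BENZR, against 6.48 in C4-2B (limma adjusted p = 3.52e-07). In CWR-R1ENZR, 7 of 34 passed 2-fold upward and 6 downward (median 0.20). S100P was at 76.5 in CWR-R1ENZR, against 1.69 in CWR-R1, the other side from C4-2BENZR. DDIT4, an inhibitor of mTOR signalling, was at 363 in CWR-R1ENZR, against 65.9 in CWR-R1. MAOA, the monoamine oxidase, was at 4.02 in CWR-R1ENZR, against 109 in CWR-R1. It was also lower in the library labelled VCaPENZR, at 0.834, against 168 in VCaP. In that library 16 of 34 were higher and 4 lower (median 0.73), among them SCNN1A, a subunit of the epithelial sodium channel that SGK1 regulates, at 484 in the library labelled VCaPENZR, against 3.87 in VCaP.

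Of 14 cytokine and inflammatory genes that glucocorticoids repress, 2 passed the filter in each lineage. Listed were 3 in C4-2B and 5 in each of the other pairs. In the CWR-R1 and VCaP pairs, the genes past the filter reached 5 only in the library where they were higher. Their direction there is thus partly set by the filter, and no test was made. In C4-2BENZR both rose: LIF, a cytokine of the interleukin 6 family, to 9.37, against 2.25 in C4-2B (limma adjusted p = 1.3e-06), and ICAM1, an adhesion molecule, to 28.7, against 22.3 in C4-2B (limma adjusted p = 0.00908). In CWR-R1ENZR, LIF was at 16.3, against 0.877 (13 reads) in CWR-R1, and IL11, of the same family, was at 7.30, against 0.945 (14 reads) in CWR-R1. In the library labelled VCaPENZR, ICAM1 was at 0.595 (10 reads), against 22.6 in VCaP, and the chemokine CCL2 had no read, against 6.09 in VCaP, at least 34.1-fold lower with the floor of 3 reads in that library.

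Of 14 partners of PER1 in the circadian clock, 7 rose and 3 fell in C4-2BENZR (median 0.36). CRY2, which represses CLOCK together with the period proteins, rose to 36.3 ± 2.97 in C4-2BENZR, against 13.3 ± 4.20 in C4-2B (limma adjusted p = 1.01e-06), and TEF, an output factor, rose to 49.1, against 24.7 in C4-2B (limma adjusted p = 1.93e-06). NR1D2, a repressor of the other arm, fell to 25.2 in C4-2BENZR, against 54.6 in C4-2B (limma adjusted p = 4.4e-08). In CWR-R1ENZR, 1 of 14 was higher and 2 were lower, and HLF, an output factor, was at 1.74, against 107 in CWR-R1. In the library labelled VCaPENZR, 5 of 13 were higher and 1 was lower (median 0.67). NR1D1, whose protein binds heme and represses the clock, was at 105 there, against 8.08 in VCaP. The labels give no hour of harvest.

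DUSP1 is also an immediate early gene, induced within minutes by growth factors. Of the 10 other such genes tested in C4-2B, 1 rose and 5 fell (median -0.25), and DUSP1 itself did not pass. JUN, part of the AP-1 factor, rose to 81.7 in C4-2BENZR, against 40.6 in C4-2B (limma adjusted p = 8.23e-09). In CWR-R1ENZR, 7 of 14 passed 2-fold upward and 0 downward (median 0.99), where 9.79% and 10.3% of all genes did, and DUSP5, a nuclear phosphatase of ERK, was at 70.2, against 1.62 in CWR-R1. In the library labelled VCaPENZR, 10 of 13 were higher and 0 lower (median 2.92), where 21.1% and 22% of all genes were, and DUSP5 was at 241, against 2.11 in VCaP. Of genes that respond, like ANGPTL4, to fatty acid receptors or low oxygen, 3 of 8 rose and 5 fell in C4-2BENZR (median -0.25), 1 of 10 was higher and 4 were lower in CWR-R1ENZR (median -0.18), and 4 of 11 were higher and 5 lower in the library labelled VCaPENZR (median -0.54). PDK4, which holds back glucose oxidation, lay on the same side as ANGPTL4 in both single-library pairs: it was at 52.5 in CWR-R1ENZR, against 143 in CWR-R1, and at 16.4 in the library labelled VCaPENZR, against 0.342 (6 reads) in VCaP.

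**Figure D4:**
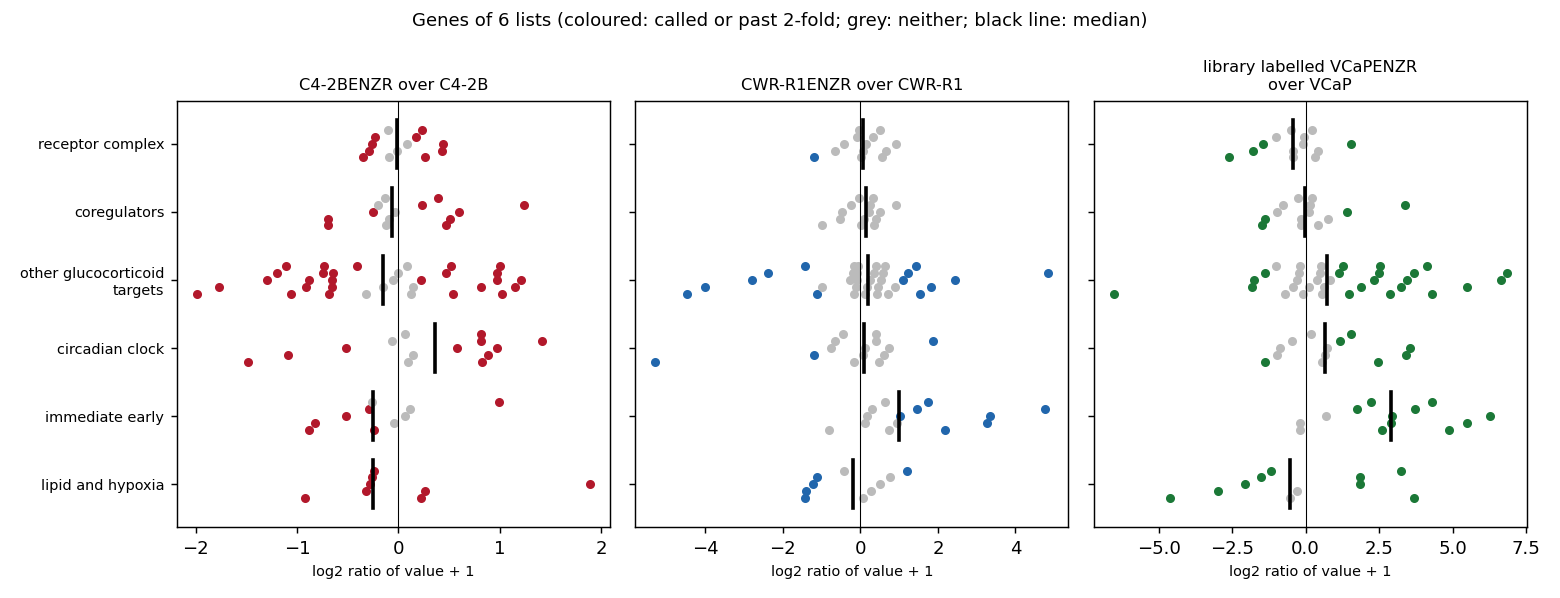
Log2 ratios of value plus 1 (x axes, each panel on its own scale) for the genes of 6 lists (y axis) in the 3 comparisons; coloured points were called (C4-2B) or past 2-fold (the others), grey points were not, and black lines are medians. The immediate early median lay at -0.25 in C4-2BENZR, at 0.99 in CWR-R1ENZR and at 2.92 in the library labelled VCaPENZR.

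Targets known for their androgen response were measured beside the shared steroid genes. KLK3, which encodes prostate-specific antigen, had levels of 49.2 and 48.1 in C4-2BENZR, against 2067 and 2024 in C4-2B (limma adjusted p = 1.47e-20). FKBP5 and KLK3 thus lay on opposite sides in that lineage. TMPRSS2, a protease gene that androgens induce, was at 286 and 303 in C4-2BENZR, against 235 and 238 in C4-2B. KLK3 was low in both CWR-R1 lines, at 0 in CWR-R1ENZR and 1.96 (29 reads) in CWR-R1, although FKBP5 reached 897 in CWR-R1. TMPRSS2 was at 55.8 in CWR-R1ENZR, against 26.2 in CWR-R1, past 2-fold on the other side from FKBP5. In the library labelled VCaPENZR, KLK3 was at 0.774 (13 reads), against 465 in VCaP, and TMPRSS2 was at 129.6, against 684 in VCaP. Beside these, COL1A1 carried most of the fibroblast marker sum, which was 50.6 to 54.9 in C4-2BENZR and 13.4 to 17.7 in C4-2B, where LUM was at 0. PDGFRB, also in that sum, did not rise with COL1A1. It was at 0.898 and 1.22 in C4-2BENZR, against 2.63 and 1.09 in C4-2B.

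Over the 6 groups, with the C4-2B replicates averaged and 11520 genes compared, the genes most like FKBP5 were TUBA1B, an alpha tubulin, at a Pearson correlation of 0.993, DNM1L, the mitochondrial fission GTPase, at 0.990, and PPARGC1B at 0.986. Those most like SGK1 were SNAPC5 at 0.986, SDC3, a syndecan, at 0.979 and SH3PXD2B at 0.966. The points are 6 cell lines, 1 of them of doubtful label, and the values are descriptions. Picked as the highest of 11520 over 6 points, these correlations are high partly by selection, and likeness was not tested. TUBA1B stood at 2407 in C4-2BENZR and 1929 in C4-2B, and at 890.0 in CWR-R1ENZR and 2970 in CWR-R1, a narrower span than that of FKBP5.

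The nearest protein-coding genes, 5 on each side in the RefSeq order of GRCh38.p14, were followed by symbol as well, and their counts are to be read against the same shares over all genes, 27.8% higher and 29% lower in C4-2B and 9.79% higher and 10.3% lower in CWR-R1. None of the 4 neighbours of FKBP5 past the filter in CWR-R1 passed 2-fold (median -0.07), beside the 8.68-fold difference in FKBP5. Around SGK1 in C4-2BENZR, 0 of 5 neighbours tested rose and 3 fell (median -0.41). Around PER1, 4 of 7 rose and 1 fell in C4-2BENZR (median 0.39), while 0 of 9 were higher and 5 lower in CWR-R1ENZR (median -1.05) and 4 of 7 were higher and 0 lower in the library labelled VCaPENZR (median 2.36). For the library labelled VCaPENZR, 21.1% of all genes were higher past 2-fold. So were 5 of 5 neighbours past the filter around TSC22D3 on the X chromosome (median 1.32), 4 of 5 around SGK1 (median 1.77) and 5 of 9 around DUSP1 (median 1.097). KLF9, ERRFI1, NR3C1 and ANGPTL4 were higher there too, with fewer higher neighbours. These were 0 of 5 around KLF9 (median -0.04) and 1 of 6 around ERRFI1 (median -0.18). Around NR3C1 they were 2 of 6 (median -0.09), and around ANGPTL4 2 of 8 (median 0.60). Around ANGPTL4, 0 of 8 rose and 7 fell in C4-2BENZR (median -0.38), where ANGPTL4 itself was close to 0 in both lines.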

How the data were processed

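RNA was sequenced as paired ends, per the labels' protocols. The build was hg19, as the submitters' processing notes give it. No aligner, counter or statistical test is named there. For every lineage the authors supplied a table with a signal per library and, from their own test, a p-value and its false discovery rate. The deposited score is the authors' signed fold, resistant over sensitive and negative where lower. Each deposited signal is a number of reads over a library's scaling factor: 100% were whole multiples of 1 read within 0.02 reads, and these reads were recovered for the count tests.

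The C4-2B libraries were compared with limma 3.58.1 (R 4.3.3) on log2 of value plus a pseudocount of 1, for genes that reached 1 in 2 or more libraries, with Benjamini-Hochberg adjustment over all genes tested and a threshold of 0.05. Fold changes on this scale understate those of low genes. CWR-R1 and VCaP pairs were described by ratios for genes that reached 5 in one or both libraries, without a test. Intervals are exact binomial at 95% and, like the floor of 3 reads, cover counting error only. Gene names in the text follow one rule: all 10 genes, from each list the 2 highest and 2 lowest called genes or fewer, KLK3 and TMPRSS2, and the 3 most similar genes for FKBP5 and SGK1; ERG was named for the label check. LUM, PDGFRB and KDR were named to show what the marker sums hold. The lists share some genes (PER2 and PDK4 stand in 2). The 10 genes and the lists were chosen with earlier results of these data known. edgeR 4.0.16, DESeq2 1.42.0, other scalings, pseudocounts and filters, a replicate block and the omission of each replicate were tried as alternatives. The limma, edgeR and DESeq2 steps were tested on simulated data. Motifs were searched with Python 3.11.15 in RefSeq windows.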

Additional observations from a re-analysis of the deposited data

Results flagged for a closer look

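FKBP5, TSC22D3, KLF9 and ANGPTL4 had ratios on opposite sides in 2 lineages. A side was taken where the C4-2BENZR and C4-2B libraries did not overlap, or where the counting interval of a single-library ratio left out 1. The groups did not overlap for 77.4% of all genes tested in C4-2B. The share of all genes with opposite sides was not counted, so the flag shows nothing particular to these genes. The differences between lineages were not tested, since the CWR-R1 and VCaP pairs have 1 library a line. FKBP5 was higher in C4-2BENZR, lower in CWR-R1ENZR and higher in the library labelled VCaPENZR than in their sensitive lines. Its log2 ratios differed by 4.02 (C4-2B minus CWR-R1) and by -3.55 (CWR-R1 minus VCaP). TSC22D3 was lower in C4-2BENZR and higher in the other pairs, with differences of -1.43 (C4-2B minus CWR-R1) and -6.54 (C4-2B minus VCaP). KLF9 was higher only in the library labelled VCaPENZR of the 3 pairs, with differences of -2.32 (C4-2B minus VCaP) and -2.67 (CWR-R1 minus VCaP), and its C4-2B change missed the limma threshold. ANGPTL4 was lower in CWR-R1ENZR and higher in the library labelled VCaPENZR, and its log2 ratios differed by -6.49 (CWR-R1 minus VCaP). Every difference that includes VCaP rests on the library whose label is in doubt.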

How the results depend on the processing

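The 6 calls among the 10 genes in C4-2B kept their direction and their side of the threshold under every scaling, pseudocount, filter, test and omission tried. Leaving out each C4-2B replicate in turn gave 6 to 7 genes called, and 5962 to 6804 over all genes, with the lone library assumed to vary like the other group. ERRFI1 had adjusted p-values (limma, edgeR or DESeq2) between 0.000481 and 0.0376 over the alternatives, and ZBTB16 between 0.000616 and 0.0188. A fold of 1.5 in place of 2 moved the CWR-R1 counts to 5 of the 10 genes (2 higher, 3 lower) and 4963 of all genes, since the limit is lower. Under total counts the FKBP5 log2 ratio was -3.02 in CWR-R1 and 0.54 in VCaP. The medians of the lists under other scalings were computed after the data had been seen. Under total counts those of the receptor complex and of the coregulators in C4-2B, of the coregulators in VCaP and of the prostate markers in C4-2B changed sign, and the median of all genes lay at 0.10 in C4-2B, 0.06 in CWR-R1 and 0.10 in VCaP.

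Same-numbered C4-2B libraries did not deviate together across genes (correlation 0.0502). This value cannot tell how the cultures were grown, and the labels do not say whether the number pairs libraries. The main fit used no pairing. The fit with a replicate block called 7 of the 8 genes tested (4 higher, 3 lower), DUSP1 joining at an adjusted p of 0.0336 (limma), and 8248 genes in all. No paired analysis was possible for CWR-R1 and VCaP because each group has 1 library. With 1 library a line, depth limits the low values: ANGPTL4 in the C4-2B lineage had 0 to 5 reads.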
